A study of Homo sapiens with 4 samples.

Results

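The genes examined were 10 core members of the Notch signaling pathway, namely 3 receptors (NOTCH1, NOTCH2 and NOTCH3), 4 ligands (DLL1, DLL3, JAG1 and JAG2), the nuclear effector RBPJ and 2 transcriptional targets (HES1 and HEY1). They were taken by symbol from 62218 genes with a transcript in the count tables, and all 10 were found. Expression was compared between human embryonic stem cells (hESCs) in the naïve and in the primed state, 2 culture states of pluripotent cells. Both states came from H1, an established, genetically unmodified hESC line. Primed cells were kept in TesR medium on Matrigel and harvested at 60% to 70% confluency. Naïve cells were derived from H1 primed cells in FINE medium and harvested at 50% confluency. Per the study's methods, FINE medium holds the kinase inhibitors dasatinib, AZD5438, SB590885, PD0325901 and Y-27632 with LIF, activin A and bFGF, and oxygen was low. In the same methods, naïve cells were kept on Matrigel of reduced growth factor content and passaged with Tryple Express, and primed cells were passaged with Dispase I. The states therefore differ in medium, inhibitors, oxygen, density, type of Matrigel and passaging enzyme together, and these cannot be told apart. There were 2 Nanopore cDNA libraries per state, from a single line, and nothing in the labels says whether the replicates were separate cultures, so the p-values measure a spread that may be technical.

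Notch receptors are single-pass membrane proteins that are activated by ligands on a neighboring cell. Ligand binding exposes the receptor to ADAM proteases and then to γ-secretase, which frees the intracellular domain to enter the nucleus, bind RBPJ and switch on targets such as the HES and HEY repressors. Without the intracellular domain, RBPJ represses the same targets. Human pluripotent cells express several receptors and ligands, and the pathway is best known there for its part in lineage choice.

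Each value is a raw count of alignments over the whole span of a transcript, introns included and strand ignored, and a gene was given the count of its transcript with the largest mean. The totals ranged from 129276054 to 161548901 counts per library. Levels are given in CPM after TMM scaling, a correction for differences in library composition. CPM are counts per 1e6 of the scaled library, which sums the gene values and not these totals. The labelled states were checked against markers. All 8 naïve markers were lower in the primed libraries, with summed levels of 1227 and 1042 CPM in naïve and 76.7 and 78.3 CPM in primed, although KLF17 lost its call when library size was used in place of TMM. All 8 primed markers were higher in primed, with summed levels of 145 and 140 CPM in naïve and 780 and 687 CPM in primed. Of 8 trophoblast markers, 7 were lower in primed, with summed levels of 1687 and 2021 CPM in naïve and 4.38 and 3.45 CPM in primed. Most of each naïve sum came from a single gene, CGA. Of 4 neural progenitor markers tested, 3 were higher and none lower (summed levels 27 and 18.9 CPM in naïve, 43.8 and 35.7 CPM in primed), while SOX1 and NEUROG2 had at most 1 count in each library. Of 6 endoderm markers tested, 4 were higher and 1 lower (4.03 and 4.54 CPM against 9.61 and 10.2 CPM). Of 5 mesoderm and primitive streak markers, 2 were higher and 1 lower (2.38 and 3.56 CPM against 40.0 and 40.2 CPM), and of 5 fibroblast markers 3 were higher and none lower (4.68 and 4.07 CPM against 59.5 and 61.7 CPM). The part of these lists in the differences below was not tested. In these bulk libraries, fewer cells of a type and less RNA per cell cannot be told apart.

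Most of the Notch genes were higher in primed than in naïve cells, and 1 of them was far lower. NOTCH1, NOTCH2, NOTCH3, DLL1, DLL3 and HES1 rose by 1.55- to 4.29-fold, and HEY1 fell 13.4-fold. The values of NOTCH2 and DLL1 include alignments that cannot be told apart from those of other genes, as given below. JAG1 and RBPJ did not pass the test, and JAG2 was too low to be tested. The filter, a minimum of 10 counts in 2 or more libraries, left 9 genes. Of these, 6 were called higher, where 37.4% of all 27633 genes tested were called higher, and 1 was called lower, where 32.6% of all genes were. Thus 7 of 9 were called in either direction beside 70.0% of all genes, a share near that of the background. The median log2 fold change was 0.97 over the 9 genes and 0.08 over all genes. In CPM, the ranges of the states did not overlap for 9 of the 10 genes, which was also so for 84.4% of all genes tested.

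**Figure D1:**
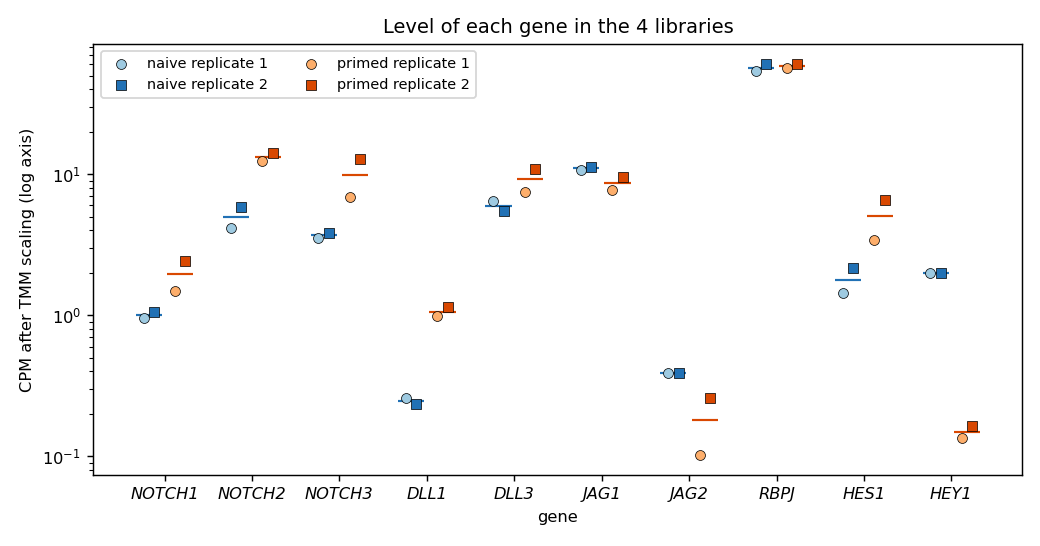
Level of each of the 10 genes in each library, in CPM after TMM scaling on a log axis, with a horizontal line at the mean of each state (n = 2). The 6 genes called higher have both primed points above both naïve points, RBPJ lies between 53.7 and 60.8 CPM in all 4 libraries, and HEY1 drops from 2.0 to 0.149 CPM.

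Among the receptors, NOTCH2 differed between the states in the place of its alignments as well as in their number. NOTCH2 (ENSG00000134250), a receptor that is broadly expressed in epithelial and mesenchymal tissues, lies on the minus strand at chr1:119911553-120069662 of GRCh38. The first 4 of its 34 exons have near-identical partial copies on chromosome 1 in NOTCH2NLA, NOTCH2NLB, NOTCH2NLC and NOTCH2NLR. These are genes of the human lineage known for their expression in the developing cortex. Over the aligned mRNA bases up to base 1007, identity to NOTCH2 was 99.0% for NOTCH2NLA, NOTCH2NLB and NOTCH2NLC and 98.3% for NOTCH2NLR. A stretch of 120 bases of exon 3, at chr1:120005409-120005528, and its counterparts are printed here 5′ to 3′ because they show how little separates the 5 genes. Capitals in NOTCH2 mark each base at which any copy differs, and capitals in a copy mark its differences from NOTCH2.
NOTCH2: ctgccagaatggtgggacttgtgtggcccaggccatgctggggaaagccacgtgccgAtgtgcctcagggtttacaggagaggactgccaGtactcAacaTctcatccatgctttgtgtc
NOTCH2NLA: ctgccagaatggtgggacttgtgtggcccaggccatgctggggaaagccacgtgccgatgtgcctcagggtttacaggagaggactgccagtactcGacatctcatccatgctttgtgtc
NOTCH2NLB: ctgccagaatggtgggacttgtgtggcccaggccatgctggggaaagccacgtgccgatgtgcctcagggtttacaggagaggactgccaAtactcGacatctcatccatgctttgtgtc
NOTCH2NLC: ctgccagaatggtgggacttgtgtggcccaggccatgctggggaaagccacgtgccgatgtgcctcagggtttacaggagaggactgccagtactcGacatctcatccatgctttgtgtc
NOTCH2NLR: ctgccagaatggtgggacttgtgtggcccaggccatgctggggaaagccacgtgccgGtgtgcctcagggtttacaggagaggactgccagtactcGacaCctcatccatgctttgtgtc

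The counterparts lie at chr1:146164831-146164950 on the minus strand (NOTCH2NLA), chr1:148615771-148615890 on the minus strand (NOTCH2NLB), chr1:149455378-149455497 on the plus strand (NOTCH2NLC) and chr1:120785034-120785153 on the plus strand (NOTCH2NLR). NOTCH2NLA and NOTCH2NLC differed from NOTCH2 at 1 of the 120 bases, NOTCH2NLB at 2 and NOTCH2NLR at 3. Reads that aligned to more than 1 place were counted at each of them, so a read from these exons can be counted for all 5 genes. A stretch of exon 26 at chr1:119923835-119923934, minus strand, is printed as an example of the sequence past exon 4 that had no match in the NOTCH2NLA locus.
NOTCH2 exon 26: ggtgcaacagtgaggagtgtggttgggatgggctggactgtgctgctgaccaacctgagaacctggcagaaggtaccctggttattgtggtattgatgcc

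Over its whole span, NOTCH2 had 96 and 149 counts in naïve and 363 and 436 in primed. Both primed libraries were above both naïve libraries. The mean was 5.0 ± 1.19 CPM in naïve and 13.3 ± 1.33 CPM in primed (SD, n = 2), a log2 fold change of 1.40 ± 0.19 (SE) with an adjusted p of 1.3e-08 by the quasi-likelihood test of edgeR, adjusted by the Benjamini-Hochberg method over all genes.

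The spans of shorter NOTCH2 isoforms cut these alignments by position. Over the span of NOTCH2-210, which holds exons 1 to 4, there were 85 and 132 counts in naïve and 171 and 229 in primed, a ratio of 1.49 after TMM scaling (95% exact counting interval 1.26 to 1.77) and of 2.32 with library size. Over the span of NOTCH2-206, which runs from exon 5 to exon 15, there were 0 and 1 counts in naïve and 44 and 52 in primed. Alignments that missed the span of NOTCH2-203, and so lay over exons 16 to 34 or within 36 bases of the other end, numbered 1 and 0 in naïve and 107 and 107 in primed. Hence the primed libraries had alignments along the whole gene. Over both naïve libraries, 1 alignment lay over the span of NOTCH2-206 and 1 missed that of NOTCH2-203. An alignment over exons 16 to 34 that also reached the span of NOTCH2-203 is not in the second count. Alignments that missed the span of NOTCH2-210 numbered 11 and 17 in naïve and 192 and 207 in primed. Most of the naïve ones were in neither of the later stretches, and nearly all of the span that this leaves is intron 4 at chr1:119987051-119995860.

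For the last stretch, the primed-to-naïve ratio of the summed counts was 173 after TMM scaling, with a 95% exact counting interval of 30.7 to 6863 that shows how little a single naïve count fixes. With library size in place of TMM the ratio was 269. For the span of NOTCH2-206 the ratio was 77.6 (13.6 to 3096), or 121 with library size. Smaller spans gave the same picture. The span of NOTCH2-205, over exons 26 and 27, held 0 and 1 counts in naïve and 30 and 19 in primed, and that of NOTCH2-202, over exons 21 and 22, held 0 and 1 in naïve and 26 and 17 in primed. Without molecular identifiers on the reads, such intervals hold counting error alone.

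As shares, 88.5% and 88.6% of the naïve NOTCH2 alignments lay over the span of exons 1 to 4, against 47.1% and 52.5% of the primed alignments. A share within a library does not depend on the scaling. The share past NOTCH2-203 was 1.04% (95% Wilson interval 0.184% to 5.67%) and 0% (up to 2.51%) in naïve and 29.5% (25% to 34.4%) and 24.5% (20.7% to 28.8%) in primed. This share was 26.5 percentage points higher in primed, where the median of 1886 genes measured in a like way was 1.38 points, and 2.23% of those genes had a difference at least as high. The NOTCH2 stretch was chosen after its values were seen. The genes compared overlapped no other gene, had at least 20 counts in each library, and had an isoform that began within 100 bases of the gene's 5′ end and stopped at least 1000 bases before its 3′ end. In the genome sequence, the match to the NOTCH2NLA locus covered 100% of the span of NOTCH2-210 and 0% of the spans of NOTCH2-206, NOTCH2-205 and NOTCH2-202 and of the stretch past NOTCH2-203. It covered 70.5% of the intron stretch between NOTCH2-206 and NOTCH2-210.

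Of the copies, NOTCH2NLR and NOTCH2NLB had counts close to those of the first NOTCH2 exons, and NOTCH2NLA and NOTCH2NLC had more in every library. NOTCH2NLR had 85 and 127 counts in naïve and 151 and 217 in primed, and NOTCH2NLB had 96 and 138 in naïve and 160 and 231 in primed. NOTCH2NLA had 122, 178, 267 and 382 counts and NOTCH2NLC 106, 159, 230 and 328, in the same order. NOTCH2NLA, NOTCH2NLC and NOTCH2NLR were called higher in primed, with log2 fold changes of 0.81, 0.77 and 0.49, and NOTCH2NLB had 0.44 (adjusted p = 0.059, edgeR's quasi-likelihood test). Which of the 5 genes the naïve alignments came from cannot be told apart by these counts.

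**Figure D2:**
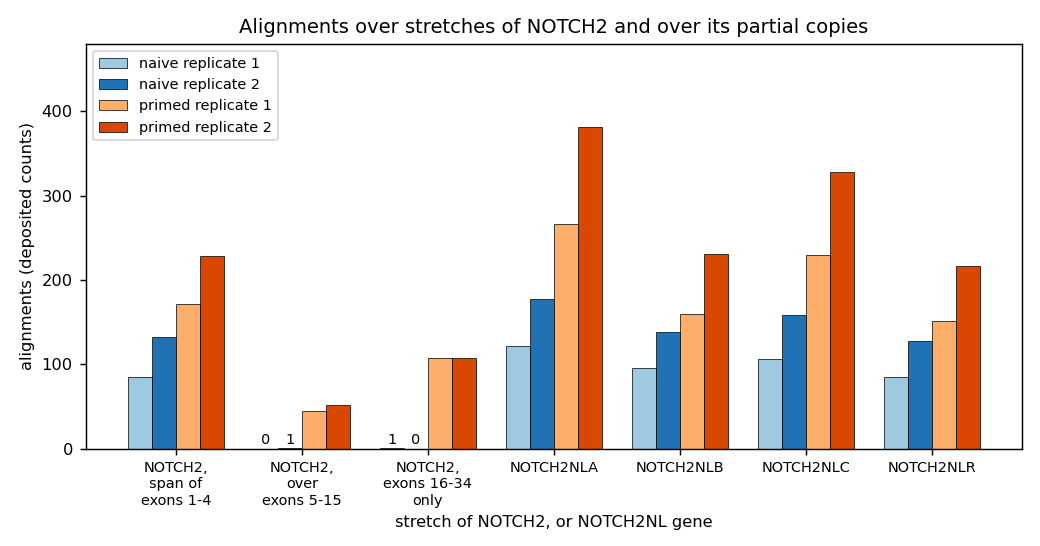
Deposited counts over 3 stretches of NOTCH2 and over the 4 NOTCH2NL genes in each library, with counts under 3 written out. The naïve bars reach 85 and 132 over exons 1 to 4 and are at 0 or 1 over the stretches past exon 4, where the primed bars lie between 44 and 107.

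NOTCH3 (ENSG00000074181), a receptor best known in vascular smooth muscle, lies at chr19:15159038-15200995. It had 82 and 98 counts in naïve and 202 and 394 in primed. Both primed libraries were higher, but primed rep2 was 1.87 times primed rep1 in CPM. The mean was 3.70 ± 0.202 CPM in naïve and 9.85 ± 4.23 CPM in primed (SD, n = 2), with a log2 fold change of 1.41 ± 0.22 (SE) and an adjusted p of 3.7e-07 by edgeR's quasi-likelihood test. Without primed rep2 the log2 fold change was 0.89. Over NOTCH3-203, which overlaps no other gene, it was 0.82 (edgeR's quasi-likelihood test, adjusted p = 0.044). The share of NOTCH3 alignments that missed NOTCH3-206, an isoform of the 5′ part, was 74.4% and 79.6% in naïve and 79.2% and 78.4% in primed, with overlapping ranges. The isoform fraction of NOTCH3-204 was 36.9% and 33.3% in naïve and 27.6% and 21.6% in primed, a difference of -0.11 in mean fraction that did not pass the test of isoform usage (adjusted p = 0.93, edgeR's diffSpliceDGE).

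NOTCH1 (ENSG00000148400), the receptor with the most studied part in T-cell development and leukemia, lies at chr9:136494433-136546048 and had the lowest counts of the receptors. They were 22 and 27 in naïve and 44 and 75 in primed. The primed values were higher, and the nearest libraries of the states, primed rep1 and naïve rep2, were at 1.49 and 1.06 CPM. The log2 fold change was 0.97 ± 0.32 (SE) with an adjusted p of 0.0068 by edgeR's quasi-likelihood test. This call was lost with DESeq2 (adjusted p = 0.086) and without primed rep2, where the log2 fold change was 0.57 (adjusted p = 0.22). Over the 3′ part of the gene, exons 16 to 34, NOTCH1 had 9 and 20 counts in naïve and 32 and 54 in primed. Alignments over exons 1 to 15 alone numbered 13 and 7 in naïve and 12 and 21 in primed and overlapped between the states in CPM, with a scaled ratio of 1.33 (95% exact counting interval 0.743 to 2.45).

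The ligands did not move together. DLL1 and DLL3 were called higher in primed, JAG1 was not called, and JAG2 was near the floor. DLL1 (ENSG00000198719), a Delta-type ligand that activates Notch on neighboring cells, had 6 and 6 counts in naïve and 29 and 35 in primed. The log2 fold change was 2.09 ± 0.45 (SE) with an adjusted p of 8.3e-05 by edgeR's quasi-likelihood test. These counts belong to DLL1-202 at chr6:170289701-170306565, whose span overlaps FAM120B on the opposite strand over 15863 bases. FAM120B had 82 and 113 counts in naïve and 270 and 318 in primed, and without strand its alignments cannot be told apart from those of DLL1. Over the canonical isoform, DLL1-201, there were 4 and 4 counts in naïve and 12 and 13 in primed, with a log2 fold change of 1.31 (edgeR's quasi-likelihood test, adjusted p = 0.036). DLL1-201, at chr6:170282206-170291078, also overlaps FAM120B, which starts at chr6:170290703. No DLL1 value is therefore free of bases shared with FAM120B.

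DLL3 (ENSG00000090932), a divergent Delta-type ligand that acts mostly inside the cell and inhibits Notch in the cell that makes it, lies at chr19:39498968-39508481. It overlaps no other annotated gene. It had 150 and 139 counts in naïve and 222 and 336 in primed, with a log2 fold change of 0.63 ± 0.19 (SE) and an adjusted p of 0.0039 by edgeR's quasi-likelihood test. The call was lost without primed rep2 (log2 fold change 0.34, adjusted p = 0.20).

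The position of the DLL3 alignments differed far more than their number. The span divided here is that of DLL3-202, chr19:39498947-39508469, which had the same counts. Alignments that missed the span of DLL3-203 lay at its 3′ end, chr19:39507290-39508469, or within 20 bases of its 5′ end. The 3′ end holds the end of exon 7 and exons 8 and 9. They numbered 109 and 99 in naïve and 79 and 112 in primed. Alignments over the span of DLL3-203 numbered 41 and 40 in naïve and 143 and 224 in primed. Thus the 3′ end alone held 72.7% (95% Wilson interval 65.0% to 79.2%) and 71.2% (63.2% to 78.1%) of the DLL3 alignments in naïve libraries, and 35.6% (29.6% to 42.1%) and 33.3% (28.5% to 38.5%) of those in primed libraries. The intervals of the states did not overlap.

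The difference of -37.5 percentage points lay outside the range from the 5th to the 95th percentile of the 1886 genes, -8.27 to 17.6 points, and 0.212% of them had a difference at least as low. Such ranks are given for NOTCH2 and DLL3 only, whose stretches were chosen after their values were seen, so they are descriptions and not tests. With 2 libraries per state an exact permutation test cannot give a p below 0.333, so none was made. Alignments over the span of DLL3-203 were 3.64 times as frequent in primed as in naïve in mean CPM, and those at the 3′ end alone 0.736 times as frequent. The second ratio turned to 1.15 with library size in place of TMM, computed on summed counts. At the start of the gene, over the short isoform DLL3-205, there were 4 and 1 counts in naïve and 25 and 29 in primed.

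JAG1 (ENSG00000101384), a Serrate-type ligand, lies at chr20:10637684-10673999. It had 249 and 287 counts in naïve and 228 and 292 in primed. In CPM the primed values of 7.74 and 9.51 were below the naïve values of 10.8 and 11.2. The log2 fold change was -0.35 ± 0.17 (SE) with an adjusted p of 0.069 by edgeR's quasi-likelihood test, and its direction depended on the scaling, with 0.28 by library size and 0.22 by total counts. JAG1 shares 1305 bases at its 5′ end with a long noncoding RNA gene on the opposite strand (ENSG00000270792, 19 and 11 counts in naïve and 36 and 41 in primed). Over the 3′ exons 24 to 26, in the span of JAG1-206, which overlaps no other gene, the counts were 21 and 36 in naïve and 55 and 60 in primed, with a log2 fold change of 0.76 (edgeR's quasi-likelihood test, adjusted p = 0.031). Alignments outside JAG1-202, over the first 3 exons and adjoining intronic sequence or within 75 bases of the other end, numbered 121 and 116 in naïve and 71 and 117 in primed, a scaled ratio of 0.641 (95% exact counting interval 0.527 to 0.780) that was 0.997 with library size. Under TMM the 5′ and 3′ stretches of JAG1 thus pointed in opposite directions.

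JAG2 (ENSG00000184916), the other Serrate-type ligand, lies at chr14:105140995-105168776. It had 9 and 10 counts in naïve and 3 and 8 in primed, below the filter, and was not tested. JAG2 overlaps a long noncoding RNA gene on the same strand (ENSG00000257622) over 16583 bases. Of its counts, 7 and 9 in naïve and 3 and 7 in primed lay over JAG2-203, at the 3′ end.

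RBPJ (ENSG00000168214), the DNA-binding protein through which all 4 human Notch receptors act, was the most highly expressed of the 10 genes and held its level. Its transcript RBPJ-205 at chr4:26321014-26434923 had 1240 and 1532 counts in naïve and 1672 and 1867 in primed. In CPM the libraries of the states overlapped, at 56.9 ± 4.45 in naïve and 58.8 ± 2.89 in primed (SD, n = 2). The log2 fold change was 0.05 ± 0.14 (SE) with an adjusted p of 0.78 by edgeR's quasi-likelihood test. With library size in place of TMM it was 0.68 (adjusted p = 1.6e-04), a scaling that moved the median of all genes from 0.08 to 0.72, so RBPJ stayed near the median gene under both. The 4 processed copies of RBPJ in the files had 3 to 11 counts each. Together with RBPJL, a paralog, they summed to 0.520 and 1.41 CPM in naïve and 1.56 and 1.47 CPM in primed.

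Within RBPJ, the shares of some spans differed between the states. These spans were picked after their values were seen, and no like measure over all genes is given. RBPJ-226, whose span of 5700 bases lies inside an intron of RBPJ-205, had 104 and 143 counts in naïve and 317 and 292 in primed. This was 8.39% and 9.33% of the RBPJ alignments in naïve and 19% and 15.6% in primed. Over the span of RBPJ-210, at exons 10 and 11, the share was 37.5% and 36.2% in naïve and 51.8% and 42.3% in primed. The part before RBPJ-249, which holds the first exon, had 23.5% and 19.4% in naïve and 18.5% and 23.1% in primed, with overlapping ranges.

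HES1 (ENSG00000114315), a basic helix-loop-helix repressor and the classic direct target of Notch, lies at chr3:194136148-194138732. It had 33 and 55 counts in naïve and 101 and 203 in primed. Both primed libraries were higher, and primed rep2 was 1.93 times primed rep1 in CPM. The mean was 1.79 ± 0.512 CPM in naïve and 5.02 ± 2.25 CPM in primed (SD, n = 2), a log2 fold change of 1.48 ± 0.27 (SE) with an adjusted p of 7.1e-06 by edgeR's quasi-likelihood test. Without primed rep2 the log2 fold change was 0.93. HES1 overlaps no other gene, and 97.5% to 100% of its alignments in each library reached the span of HES1-202 in the first 3 exons.

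RBPJ binds a motif with the core GTGGGAA. Of the 35116 RefSeq promoters on GRCh38, each from 250 bases before to 50 bases after a gene start, 6.25% held these letters on either strand. Promoters were at hand for 7 of the 10 genes (11 promoters, several genes having more than 1), and 2 of the 11 held a match, 1 of HES1 and 1 of RBPJ. The HES1 promoter is shown because HES1 is the target that rose, as 140 bases before the gene start at chr3:194136008-194136147, plus strand, with the match in capitals. The match begins 85 bases before the start. It was found here as a match of letters, and binding in these cells was not measured.
HES1 promoter: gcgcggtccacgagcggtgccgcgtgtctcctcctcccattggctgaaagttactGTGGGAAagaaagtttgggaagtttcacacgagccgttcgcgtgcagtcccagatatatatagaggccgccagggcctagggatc

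HEY1 (ENSG00000164683), a repressor related to HES1 and another direct Notch target, went the other way. It had 46 and 51 counts in naïve and 4 and 5 in primed. In CPM the naïve libraries were at 1.99 and 2.0 and the primed libraries at 0.136 and 0.163, far apart and each pair close together. The log2 fold change was -3.70 ± 0.43 (SE) with an adjusted p of 4.7e-10 by edgeR's quasi-likelihood test, and it lay between -3.83 and -3.07 under every alternative that tested HEY1. HEY1 overlaps no other gene. Of 8 trophoblast markers, 7 were also called lower, among them CGA with 35747 and 47550 counts in naïve and 0 and 1 in primed. GATA3 had 976 and 1151 counts against 15 and 16, and VGLL1 402 and 426 against 0 and 0. With library size 7 of the 8 were called lower and 1 higher. All 8 naïve markers were lower too under TMM, and so were 32.6% of all genes tested. The part of these markers in the HEY1 difference was not tested.

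**Figure D3:**
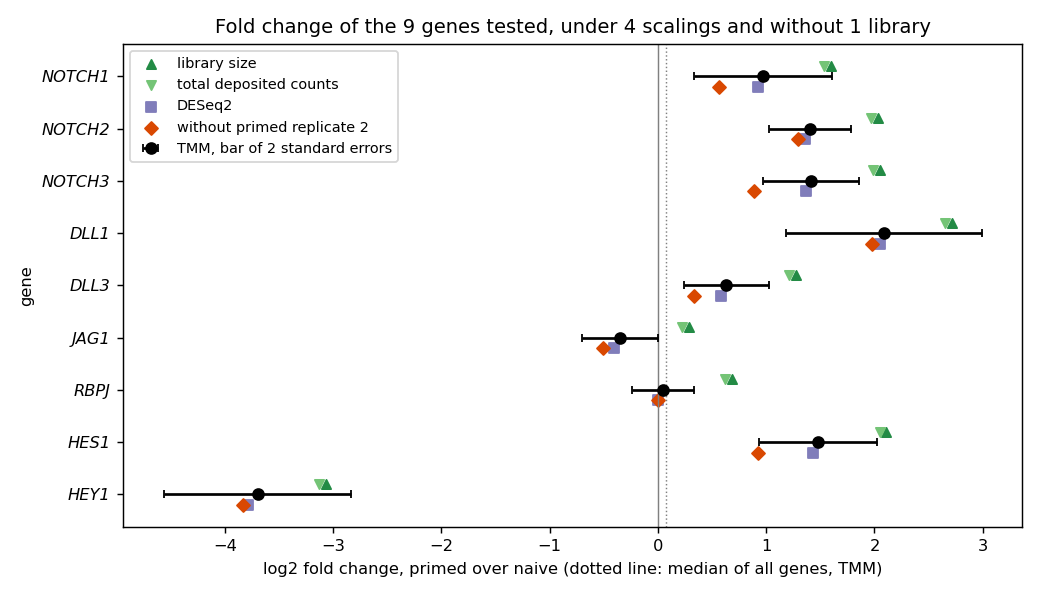
Log2 fold change (primed over naïve) of the 9 genes tested, with bars of 2 standard errors around the TMM value, and the values under library size, total counts and DESeq2 and without primed rep2. HEY1 lies below -3 and NOTCH2, NOTCH3, DLL1 and HES1 lie above 0.8 under all 5, whereas JAG1 and RBPJ move across 0 between settings.

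A single library had weight in several of these differences. All 10 genes were higher in primed rep2 than in primed rep1 in CPM, by 1.07 times (RBPJ) to 2.56 times (JAG2, on 3 and 8 counts). Among 21976 genes with enough counts the median ratio of primed rep2 to primed rep1 was 1.00, and the range from the 5th to the 95th percentile was 0.731 to 1.44. NOTCH1, NOTCH3, DLL3 and HES1 lay above that range, at 1.64, 1.87, 1.45 and 1.93. Ratios as high as that of HES1 were found in 0.460% of genes, and as high as that of NOTCH3 in 0.601%. Between the naïve libraries only HES1 stood above the corresponding range of 0.730 to 1.46, at 1.51. The labels give a confluency range for primed cells but not a value per library, and its part in this was not tested.

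Levels of different genes were compared as CPM per kb of exonic length of the transcript counted. In naïve cells the order was RBPJ (10.5 ± 0.824), DLL3 (2.56 ± 0.319), JAG1 (1.85 ± 0.0541), HES1 (1.14 ± 0.325), HEY1 (0.514 ± 0.000886), DLL1 (0.452 ± 0.0321), NOTCH2 (0.437 ± 0.104), NOTCH3 (0.426 ± 0.0233), NOTCH1 (0.102 ± 0.00750) and JAG2 (0.0677 ± 0.000221), all as mean ± SD of 2 libraries. The neighbors DLL1 and NOTCH2, and NOTCH2 and NOTCH3, overlapped between libraries. In primed cells the order was RBPJ (10.9 ± 0.536), DLL3 (3.96 ± 1.04), HES1 (3.19 ± 1.43), DLL1 (1.94 ± 0.202), JAG1 (1.45 ± 0.211), NOTCH2 (1.16 ± 0.117), NOTCH3 (1.13 ± 0.487), NOTCH1 (0.20 ± 0.0682), HEY1 (0.0385 ± 0.00495) and JAG2 (0.0314 ± 0.0195). Here DLL3 and HES1, NOTCH2 and NOTCH3, and HEY1 and JAG2 overlapped. HEY1 thus passed from above the receptors to a level that overlapped that of JAG2. The value of DLL1 rests on an exonic length of 548 bases and on alignments shared with FAM120B. In the naïve libraries, 88.5% and 88.6% of the NOTCH2 alignments lay over the span of exons 1 to 4. These cannot be told apart from alignments of the NOTCH2NL genes, so the naïve rank of NOTCH2 may not be its own. Intronic alignments count for every gene, so the order is approximate.

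Isoform usage was tested on the same counts by setting every isoform beside the rest of its gene. A call took an adjusted p under 0.05 and a difference in isoform fraction (dIF) beyond 0.1. None of the 109 isoforms of the 9 genes tested was called by edgeR's diffSpliceDGE, where 0.556% of all 159577 isoforms were. In any library, no RBPJ isoform held more than 6.87% of its gene, and NOTCH2-201 held at most 2.04%. A dIF beyond 0.1 was hard to reach for such isoforms, so the lack of calls is partly set by the threshold. By adjusted p alone 5 of the 109 passed, beside 4.27% of all isoforms. These were NOTCH2-206 (adjusted p = 9.6e-04), NOTCH2-205 (0.024), NOTCH2-202 (0.041), RBPJ-226 (1.2e-04) and RBPJ-217 (0.021), all with a positive dIF of at most 0.0256. The 3 NOTCH2 isoforms all lie past exon 4. DLL3 had no isoform past the threshold, its smallest adjusted p being 0.21. This test compares annotated isoforms, whose spans share alignments, and not the stretches outside a span that are described above.

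**Figure D4:**
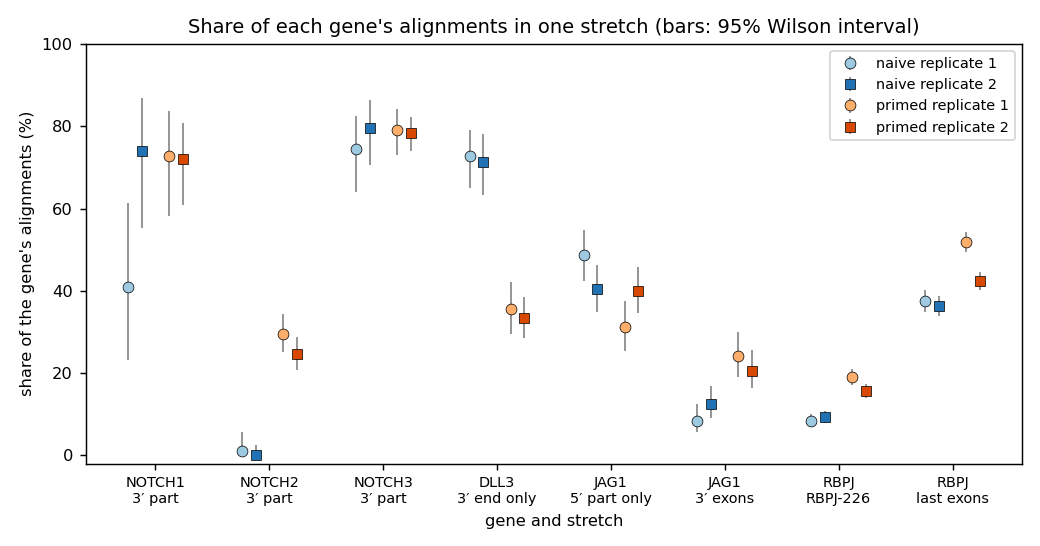
Share of the alignments of a gene that lay in 1 stretch, per library, with 95% Wilson intervals. The DLL3 3′ end alone holds 72.7% and 71.2% of the naïve and 35.6% and 33.3% of the primed alignments, the NOTCH2 3′ part rises from 1.04% and 0% to 29.5% and 24.5%, and the NOTCH3 shares lie between 74.4% and 79.6% in all libraries.

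The other genes of the pathway were taken as 7 lists by role, 91 genes in all. Of the 84 tested, 33 were called higher and 25 lower in primed, 69.0% in either direction, close to the 70.0% of all genes. Their median log2 fold change was 0.04. With library size 50 were higher and 9 lower. That scaling called 56.2% of all genes higher and 16.3% lower, so the counts per list with library size are to be read against these shares.

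Of 9 genes of receptor cleavage tested, 7 were called lower and 1 higher under TMM, with a median log2 fold change of -0.89, but with library size 1 was called lower and 2 higher. FURIN, the convertase that cuts the receptor on its way to the surface, had 55 and 81 counts in naïve and 38 and 40 in primed (log2 fold change -1.10, adjusted p = 6.2e-04, edgeR's quasi-likelihood test, lost with library size). APH1B, a subunit of γ-secretase, was the exception, with 13 and 26 counts in naïve and 256 and 315 in primed (log2 fold change 3.56, adjusted p = 6.4e-16, edgeR's quasi-likelihood test).

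Of 11 genes of receptor glycosylation, which set how receptors respond to Delta and Serrate ligands, 6 were called higher and none lower by edgeR under TMM, and with library size 10 were higher and none lower. POGLUT1, which adds O-glucose to the EGF repeats, had 29 and 24 counts in naïve and 140 and 112 in primed (log2 fold change 1.94, adjusted p = 6.1e-08, edgeR's quasi-likelihood test).

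Of 9 other receptor and ligand genes tested, 4 were higher and 3 lower under both scalings. CNTN1, a cell adhesion protein described as a ligand of Notch, had 0 and 5 counts in naïve and 306 and 361 in primed (log2 fold change 6.69, adjusted p = 8.9e-20, edgeR's quasi-likelihood test). MFAP5, a microfibril protein that binds Notch1, went the opposite way with 746 and 972 counts in naïve and 9 and 14 in primed (log2 fold change -6.51, adjusted p = 2.7e-26).

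Of 16 genes of endocytosis and ubiquitin ligases, 7 were higher and 5 lower, or 10 and 2 with library size. DTX3, a Deltex-family ligase, rose from 13 and 11 counts to 100 and 88 (log2 fold change 2.65, adjusted p = 2.6e-09, edgeR's quasi-likelihood test). NEURL1, a ligase that promotes ligand endocytosis, fell from 127 and 198 counts to 20 and 17 (log2 fold change -3.42, adjusted p = 2.6e-14).

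In the nucleus, 1 of 8 coactivators was higher and 4 lower, but 3 and 1 with library size. MAML3, of the Mastermind family that joins the complex of RBPJ and the intracellular domain, rose from 168 and 211 counts to 318 and 499 (log2 fold change 0.80, adjusted p = 1.8e-04, edgeR's quasi-likelihood test). SNW1, a coregulator that also acts in splicing, fell from 1901 and 2244 counts to 878 and 931 (log2 fold change -1.50, adjusted p = 3.8e-12). Of 18 corepressors, 7 were higher and 3 lower, but 14 and none with library size. CTBP2 rose from 438 and 555 counts to 1422 and 1600 (log2 fold change 1.30, adjusted p = 4.2e-10, edgeR's quasi-likelihood test). CIR1, which links RBPJ to histone deacetylases, had a log2 fold change of -0.74 (adjusted p = 4.5e-05) that was lost with library size.

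Among 13 other HES and HEY and target genes tested, 7 were higher and 3 lower, or 7 and 2 with library size. The 10 called under TMM are 76.9% of the list, beside the 70.0% of all genes. CCND1, which encodes cyclin D1, had 106 and 125 counts in naïve and 283 and 345 in primed (log2 fold change 1.13, adjusted p = 1.1e-06, edgeR's quasi-likelihood test). BHLHE40, a basic helix-loop-helix repressor, fell from 863 and 964 counts to 45 and 37 (log2 fold change -4.78, adjusted p = 1.5e-24).

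**Figure D5:**
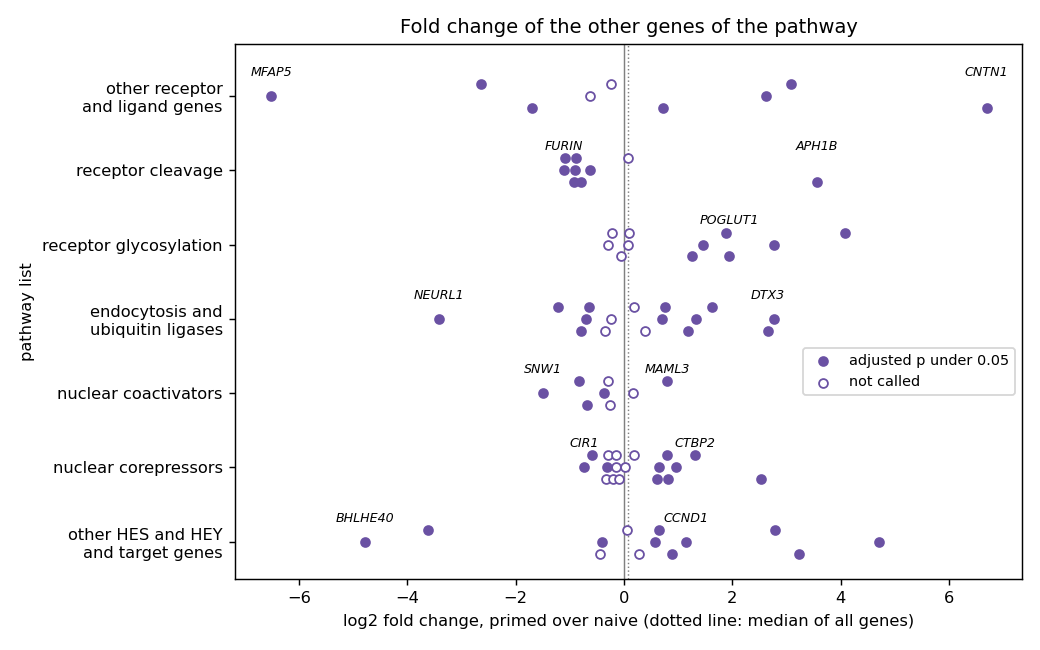
Log2 fold change (primed over naïve) of each tested gene in the 7 pathway lists, filled where the adjusted p was under 0.05, with the genes named by rule. The cleavage genes cluster near -0.89 with APH1B at 3.56, and the called glycosylation genes all lie above 0.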

How the data were processed

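Nanopore cDNA libraries of H1 primed hESCs and of naïve hESCs derived from them, 2 per state, were sequenced by the authors and aligned to GRCh38 with minimap2. The deposited values are raw counts of alignments per transcript of Ensembl release 105, made by the authors with featureCounts 2.0.0 over whole transcript spans, without strand, for every transcript overlapped and for every place a read aligned, and replicates were not pooled. The totals were 153647482 and 161548901 counts in naïve rep1 and rep2 and 129276054 and 132927036 in primed rep1 and rep2. At these, 3 counts, the limit that a count of 0 allows, are 0.0186 to 0.0232 CPM of the total. The CPM given in the text are larger, being per scaled library of gene values, 23085886 (naïve rep1) to 30688497 (primed rep2). On that scale 3 counts were 0.130 CPM in naïve rep1 and 0.102 CPM in primed rep1.

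Transcripts were matched by identifier to GENCODE 44 (242542 of 244825, with 1.0% of counts unmatched and left out), and a gene took the count of its transcript with the largest mean. Genes reaching 10 counts in 2 or more libraries entered a two-sided test in edgeR 4.0.16 (quasi-likelihood, TMM, state as the only term) in R 4.3.3, with Benjamini-Hochberg adjustment over 27633 genes and a threshold of 0.05. TMM factors were 0.779 and 0.824 in naïve and 1.25 and 1.24 in primed. Isoform usage was tested with diffSpliceDGE, with isoform fractions from counts per exonic length. Differences of nested spans gave counts per stretch, and intervals are Wilson (shares) or exact (ratios). Exon numbers are those of the transcript counted, but of NOTCH1-204 for NOTCH1 and of DLL3-202 for DLL3.

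The members and lists were chosen with earlier results of these data known, and the stretches after their values were seen. Beyond the 10 genes, the called gene with the largest change in each direction was named per list, if the states did not overlap and the mean count was at least 50. FAM120B, the noncoding RNA genes and the NOTCH2NL genes were named for sharing alignments with a member, and marker genes as examples. Alternatives were library size or total counts in place of TMM, DESeq2 1.42.0, other filters, other transcripts per gene, the replicate number as a block, and each library left out. NOTCH2 outside NOTCH2-203 and the canonical exonic length were added after seeing the data.

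The gene tests were tested on simulated counts of 27065 genes with 200 changed 4-fold, of which edgeR recovered 100% with 7 false calls and DESeq2 98% with 4. The isoform test recovered 93.5% of 200 isoforms changed 4-fold among 157144. The changed genes and isoforms had a mean of at least 50 counts, above those of DLL1, HEY1 and NOTCH1, and the dispersion was fixed at 0.02. Changes were few and balanced in direction, unlike the 70.0% of genes called in these data, and simulated isoforms shared no alignments. Recovery of smaller changes, or at lower counts, was not tested.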

Additional observations from a re-analysis of the deposited data

How the results depend on the processing

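The direction of NOTCH1, NOTCH2, NOTCH3, DLL1, DLL3, HES1 and HEY1 held under each alternative that tested them, and NOTCH1 and DLL3 lost their calls as given above. JAG1 changed sign with library size (0.28), total counts (0.22) and the transcript free of overlaps (0.76), and was called lower with the replicate block (-0.36, adjusted p = 0.039) and without primed rep2 (-0.51, adjusted p = 0.035). RBPJ changed sign by tiny amounts with DESeq2 (-0.00052), without naïve rep1 (-0.033) and without primed rep2 (-0.0030), was at most 0.13 with 1 library left out, and was called higher with library size (0.68) and total counts (0.62). The number of the 10 genes called lower was 1, but 2 with the replicate block and 0 with a filter of at least 50 counts, which left HEY1, NOTCH1 and DLL1 untested. With 1 library left out it ranged from 1 to 2. The number called higher ranged from 4 to 6 with 1 library left out, 4 being the count without primed rep2. For the other pathway genes, 33 higher became 50 with library size and 20 with transcripts free of overlaps, which tested fewer genes, and 25 lower became 9 with library size and 10 with total counts. With no dIF threshold 5 isoforms of the 10 genes passed in place of 0. Of the 20 ranks of levels per length, 17 differed without length and 9 with the canonical exonic length. Naïve and primed libraries share replicate numbers, but deviations of same-numbered libraries correlated at 0.0407 over genes and nothing in the labels pairs them. The replicate block left 6 of the 10 genes called higher. Counting NOTCH2 outside NOTCH2-203 gave a fitted log2 fold change of 7.14, which rests on 1 naïve count. Depth limits JAG2, with at most 10 counts in each library, and DLL1 in naïve cells, HEY1 in primed cells and the naïve 3′ part of NOTCH2, with under 10 counts in each.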

Other observations

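Several pathway genes outside the naming rule were picked out after their values were seen. The γ-secretase subunits PSEN2, NCSTN, APH1A and PSENEN were lower in primed under TMM, with log2 fold changes of -0.93, -1.09, -0.79 and -0.89 in that order, all called by edgeR's quasi-likelihood test. With library size only NCSTN of these 4 was still called (-0.46, adjusted p = 0.015). Of the ADAM proteases, which cut the receptor at the surface, ADAM17 had -0.91 under TMM and -0.27 with library size, and ADAM10 had 0.07 and 0.71. Among the Fringe enzymes, which extend O-fucose on the receptor, MFNG had 1 and 2 counts in naïve and 32 and 35 in primed, and LFNG 3 and 0 in naïve and 15 and 12 in primed (log2 fold change 2.77, called by edgeR but not by DESeq2, adjusted p = 0.053). RFNG had a log2 fold change of 0.07 and was not called.

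NRARP, a feedback inhibitor induced by Notch, had 6 and 4 counts in naïve and 58 and 61 in primed, a log2 fold change of 3.24 ± 0.42 (SE) with an adjusted p of 7.0e-09 by edgeR's quasi-likelihood test. HEYL, related to HEY1, had 1 and 4 counts in naïve and 21 and 23 in primed, and HES3 had 0 and 2 against 41 and 30. HEY2 had 100 and 194 counts in naïve and 143 and 123 in primed and was not called. HES2 had a log2 fold change of -3.61, and HES5, a common readout of Notch in neural cells, had a single count, in primed rep2. DLL4, a Delta-type ligand best known in vessels, had 30 and 16 counts in naïve and 1 and 8 in primed (log2 fold change -2.64, adjusted p = 3.8e-05, edgeR's quasi-likelihood test). NOTCH4 had 11 to 15 counts in each library and was not called.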
